A study of Homo sapiens with 48 samples.

Results

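The genes described here are 10 transcriptional regulators and feedback factors of the integrated stress response, namely ATF4, DDIT3, ATF3, ATF5, CEBPB, CEBPG, TRIB3, PPP1R15A, DDIT4 and SESN2. They were taken by symbol from a table of counts per gene, in which each symbol had 1 row, so that they make up 10 of its 58302 genes. All 10 had enough counts to be tested in every comparison, and the lowest count of any of them in any library was 138 (ATF3).

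In the integrated stress response, kinases that sense different stresses phosphorylate the translation initiation factor eIF2 on its alpha subunit. This lowers protein synthesis in general while it favors translation of a few mRNAs with short upstream reading frames, among them that of the transcription factor ATF4. ATF4 then activates genes of amino acid synthesis and uptake, genes of other transcription factors such as DDIT3 (CHOP), and genes that switch the response off again. One of the kinases, PERK, sits in the membrane of the endoplasmic reticulum (ER) beside IRE1, and plasma cells, which secrete large amounts of antibody, use the ER stress sensors in their normal life. Because ATF4, ATF5 and PPP1R15A are also controlled at the level of translation, their mRNA need not follow their protein.

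The data are mRNA sequencing counts from AMO1, an established human multiple myeloma cell line, with shRNAs switched on by 0.2 µg/ml doxycycline (Dox). The shIRE1 clones 1 and 3 carried the constructs that the labels number sh7, sh8 and sh9, against ERN1, the gene of IRE1. The shXBP1 clones 1 and 18 carried sh4, sh6 and sh7 against XBP1, the transcription factor whose mRNA is spliced by IRE1. Each clone was sampled without treatment (0 h) and after 24, 48 and 72 h of Dox in biological triplicate, which gave 16 groups of 3 and 48 libraries. The clones were grown from single cells after puromycin selection, so that each group rests on 1 clone, and no libraries with a non-targeting shRNA were analysed here, so that what Dox or any shRNA does by itself cannot be told apart from the loss of the targeted gene.

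Library totals ran from 19177855 to 40767202 counts. Levels are given as CPM, counts scaled to library size by the TMM method, and 1 count was at most 0.0521 CPM. Of 10 plasma cell markers 9 were above 1 CPM in every library, with CD27 below 1 CPM throughout. Of 12 markers of other cells 8 were below 1 CPM throughout and CD3E, at 4.59 to 17.3 CPM, was above it in every library. The targeted genes fell in every clone, ERN1 in shIRE1 clone 1 from 152 ± 2.38 to 102 ± 1.70 CPM and in shIRE1 clone 3 from 438 ± 15.4 to 125 ± 2.92 CPM at 72 h, and XBP1 from 167 ± 7.65 to 34.0 ± 0.758 CPM in shXBP1 clone 1 and from 170.3 ± 6.68 to 37.9 ± 5.37 CPM in shXBP1 clone 18 (SD, n = 3). The library labelled shXBP1 clone 18, 72 h, replicate 3 stood apart. Across genes it correlated at 0.983 with its own group and at 0.994 with shXBP1 clone 1 at 72 h, and the main values that moved without it are given both ways. Another library, labelled shIRE1 clone 3, 24 h, replicate 1 lay slightly nearer to shIRE1 clone 1 at 24 h (0.992) than to its own group (0.991). Replicates of shXBP1 clone 1 also spread, by a chi-square per gene between 2 libraries, averaged over genes with at least 50 counts together. It was 38.9 and 39.3 for 0 h replicate 1 against replicates 2 and 3, and 55.8 between 24 h replicates 1 and 2. For the library that stood apart it was 50.5 and 47.2.

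Of the 10 promoters, 3 held a motif of stress-responsive bZIP factors, those of ATF3, CEBPG and PPP1R15A, and all matching stretches are shown. These 3 genes fell in both shIRE1 clones at every time, as did ATF4, whose promoter held no match. The part of the motifs in the changes was not tested. RefSeq promoters on GRCh38.p14, from 250 bases before to 50 after the start, were searched on both strands for TGATGNAA, the core of the C/EBP-ATF response element (CARE) to which ATF4 binds with C/EBP partners, and for TGACGTCA, the cyclic AMP response element (CRE). All 10 genes had a promoter in the table, and the capitals mark the match.
ATF3 (CARE, chr1:212565207-212565232, + strand): aggtcaggaTGATGGAAggctgtcat
CEBPG (CARE, chr19:33374062-33374087, + strand): cgcggcgtcTGATGCAAcctgccggc
PPP1R15A (CRE, chr19:48872354-48872379, + strand): ctctcttcgTGACGTCAgcacgccgg
The CARE core was in 2 of the 10 promoters and in 3.62% of 35116 promoters, and the CRE in 1 of 10 and in 1.85%. This form of the CARE core was chosen after the longer TGATGNAAT (0.991% of promoters) had matched none of the 10. Neither TGACGTGG, the core of an XBP1 site that begins like the CRE (0.729% of promoters), nor the ER stress response element ERSE (0.0769%) was found in these 10 windows.

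**Figure D1:**
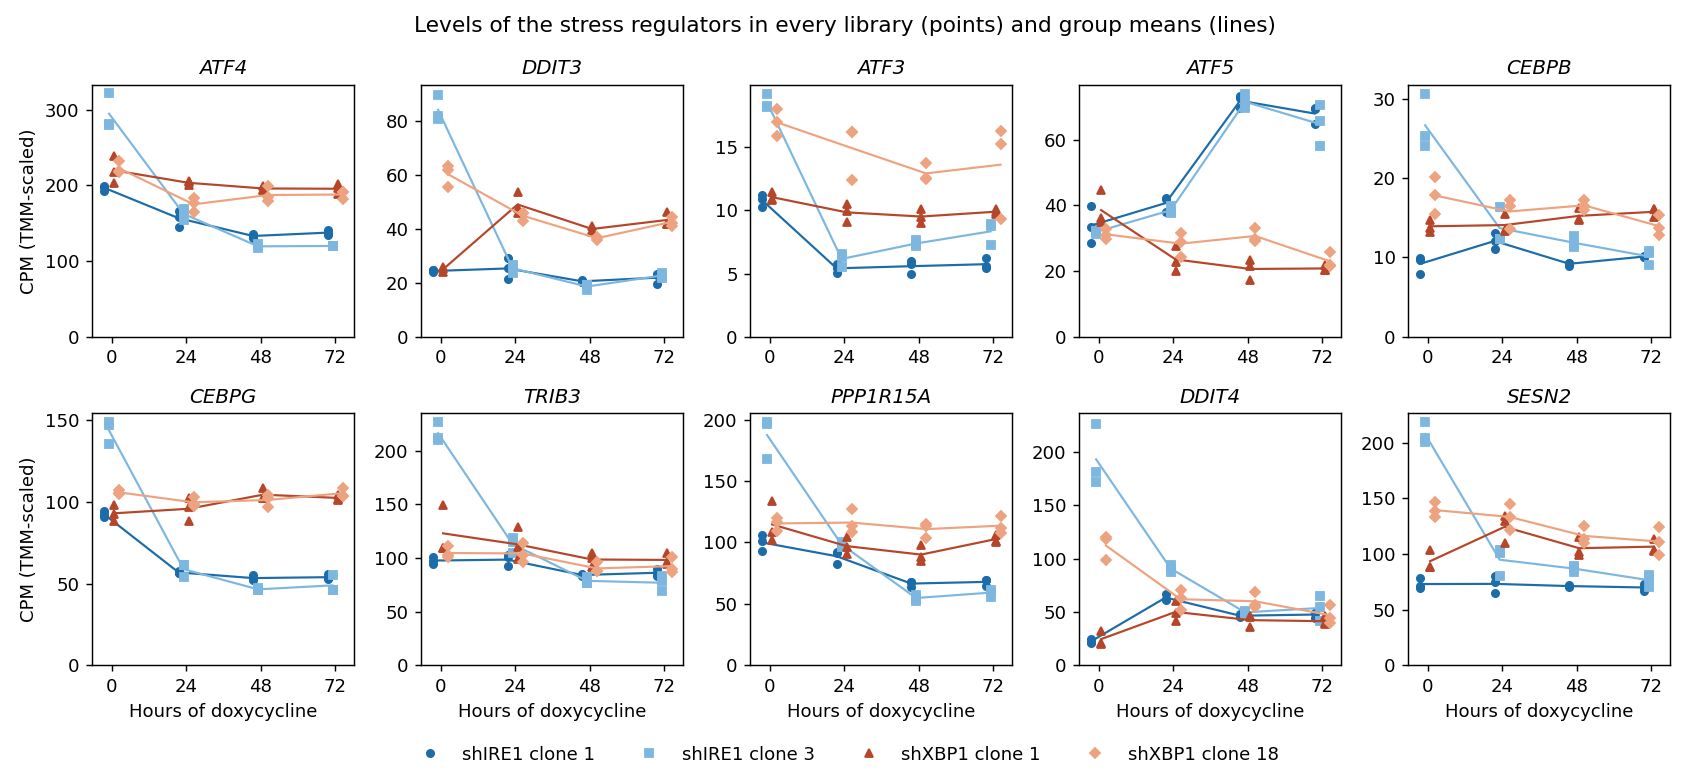
Level of each of the 10 genes in CPM (vertical axes, from 0, a scale of its own per gene) against hours of Dox (horizontal axes), with a point per library and lines through the means of 3 libraries. The shIRE1 clone 3 libraries at 0 h stand highest for 9 of the 10 genes, and ATF5 is the gene that rose in both shIRE1 clones.

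The highest library of all 48 belonged to shIRE1 clone 3 at 0 h for 9 of the 10 genes, and to the same clone at 48 h for ATF5. As a ratio, DDIT4 had the widest range, from 20.0 to 226 CPM over the 48 libraries, and ATF4 the narrowest, from 118 to 322 CPM. Divided by exonic length (GENCODE 44), ATF4 had the highest level and ATF3 the lowest of the 10 in every clone at both 0 and 72 h.

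The shIRE1 clones were compared with their own 0 h libraries to ask how these regulators moved after IRE1 silencing. In clone 3, 9 of the 10 mRNAs fell at each of the 3 times, and ATF5 rose at each time. The falls at 72 h ran from -1.17 (ATF3) to -1.90 (DDIT3) on the log2 scale. In clone 1 the same regulators divided. ATF4, ATF3, CEBPG and PPP1R15A fell at every time, TRIB3 fell at 48 and 72 h, DDIT3 fell at 48 h alone, ATF5 and DDIT4 rose at every time, CEBPB rose at 24 h alone, and SESN2 passed the threshold at no time. Throughout, a change was called at an adjusted p below 0.05 in edgeR's quasi-likelihood test over all genes tested. Because cells were sequenced in bulk, a lower level in every cell and fewer cells with the mRNA cannot be told apart.

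Many other genes changed in these clones too, so the counts are set beside the share of all genes called. In shIRE1 clone 1, 3 of the 10 rose and 4 fell at 24 h (all genes: 32.4% higher and 29.0% lower), 2 rose and 6 fell at 48 h (33.9% and 31.5%), and 2 rose and 5 fell at 72 h (32.5% and 31.1%). Their median log2 fold change was 0.0045, -0.23 and -0.17, beside 0.04, 0.03 and 0.02 over all genes. For shIRE1 clone 3 the count was 1 higher and 9 lower at each time, where all genes gave 22.8% and 23.3% at 24 h, 31.6% and 31.6% at 48 h, and 29.7% and 30.5% at 72 h. The median of the 10 in this clone was -1.03, -1.40 and -1.48, with 0.03, 0.02 and 0.02 over all genes. The share of these regulators that fell in clone 3 was thus above that of all genes at each time. The 10 genes were chosen with earlier results of these data known, so this is a description and not independent support.

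The shXBP1 clones were compared with their own 0 h libraries in the same way. DDIT3 and DDIT4 rose at every time in shXBP1 clone 1 and fell at every time in shXBP1 clone 18, and ATF5 fell at every time in clone 1. In shXBP1 clone 1, 3 rose and 1 fell at 24 h (all genes: 13.9% higher and 12.8% lower), 2 rose and 4 fell at 48 h (16.6% and 15.5%), and 2 rose and 2 fell at 72 h (16.8% and 16.8%). For shXBP1 clone 18 no regulator rose, and 3, 3 and 5 fell at 24, 48 and 72 h, beside 0.291%, 2.28% and 4.41% of all genes higher and 1.30%, 3.50% and 5.55% lower. Without the library that stood apart the falls numbered 3, 5 and 4, beside 3.33%, 7.16% and 4.48% of all genes lower. At 48 h in shXBP1 clone 1 the count of 6 was 3 when 0 h replicate 1 or either of replicates 2 and 3 at 48 h was left out. At 72 h in clone 18 the count of 5 was 2 without 0 h replicate 1 or 3 and 3 without 0 h replicate 2 or 72 h replicate 2.

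**Figure D2:**
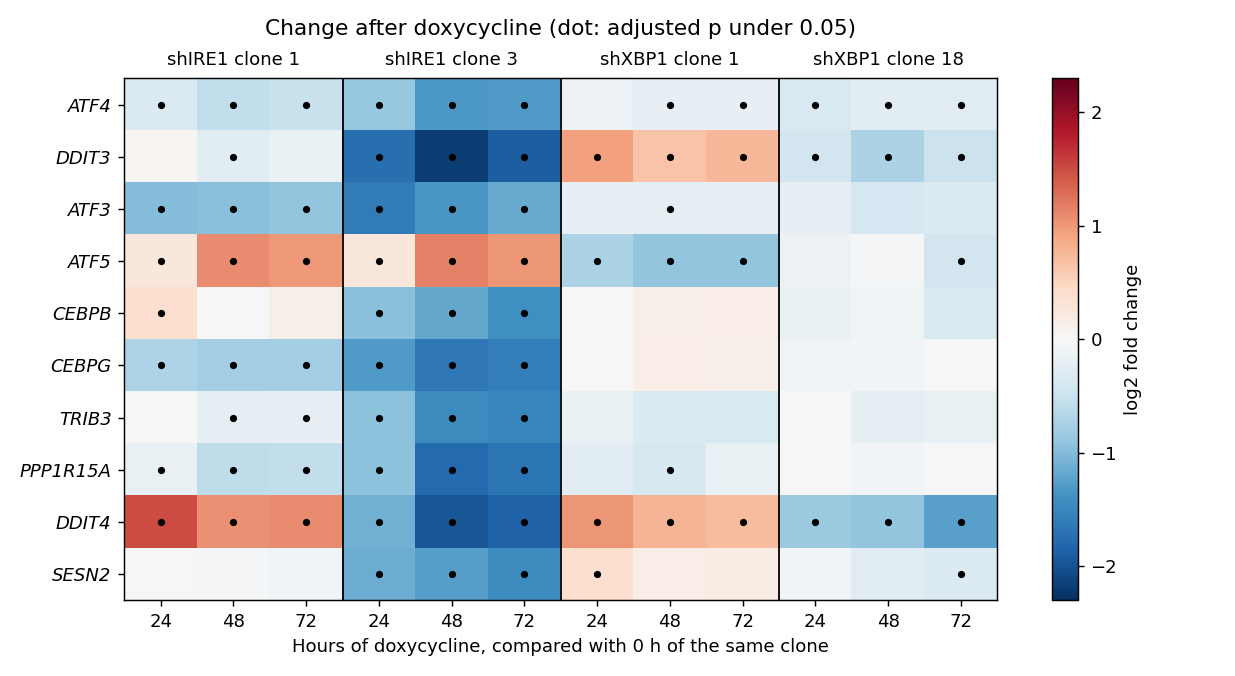
Log2 fold change of each gene (rows) at 24, 48 and 72 h of Dox against 0 h of the same clone (columns, in blocks by clone), in blue for lower and red for higher, with a dot where the adjusted p was below 0.05. The shIRE1 clone 3 block is blue in every row but ATF5, and DDIT3 and DDIT4 have opposite colors in the shXBP1 clones.

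ATF4, the transcription factor at the center of the response, fell in both shIRE1 clones. In shIRE1 clone 1 its level stood at 198, 192 and 199.7 CPM at 0 h, 145, 159 and 166 at 24 h, 133, 136 and 130.2 at 48 h and 135, 141 and 137 at 72 h. The clone 3 libraries were at 322, 281 and 279.9 CPM at 0 h, 168, 154 and 164 at 24 h, 118, 118 and 122 at 48 h and 119.9, 119.7 and 120.1 at 72 h. In both clones every library after Dox lay below every 0 h library, and at 48 and 72 h the levels of clone 3 had dropped below those of clone 1. On the log2 scale this was -0.33, -0.56 and -0.52 in clone 1 (SE 0.0460 to 0.0465, adjusted p = 3.39e-09 to 4.50e-06) and -0.87, -1.31 and -1.31 in clone 3 (SE 0.0565 to 0.0572, adjusted p = 4.19e-11 to 1.02e-08).

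In the shXBP1 clones ATF4 passed the threshold for a fall at 48 and 72 h in clone 1 and at each time in clone 18. The clone 1 libraries lay at 239, 202 and 218 CPM at 0 h, 201, 205 and 204 at 24 h, 199, 194 and 194 at 48 h and 196, 202 and 189 at 72 h. Those of clone 18 lay at 217, 219 and 232 CPM at 0 h, 184, 165 and 176 at 24 h, 184, 179 and 199 at 48 h and 191, 191 and 182 at 72 h. The 0 h libraries lay above all Dox libraries in clone 18, while in clone 1 the lowest of them was within the range of the libraries at 24 h. For ATF4 the log2 fold change was -0.14, -0.18 and -0.19 in clone 1 (adjusted p = 0.0840, 0.0244 and 0.0190) and -0.35, -0.25 and -0.24 in clone 18 (adjusted p = 0.00634, 0.0233 and 0.0215). Several of these calls rested on single libraries or on the filter. Without the filter on low counts the clone 1 values at 48 and 72 h missed the threshold (adjusted p = 0.0586 and 0.0507). The clone 1 calls at 48 and 72 h were lost without 0 h replicate 1 (-0.11 and -0.12) or 3 and without some Dox libraries. The clone 18 call at 48 h was lost without any 1 of 5 of its 6 libraries, that at 24 h when 0 h replicate 3 or 24 h replicate 2 was left out, and that at 72 h when any 1 of the 0 h libraries was. The 4 annotated processed copies of ATF4 together held 1.36% as many counts as ATF4 itself, and how the counting of these libraries treated reads that match several of them is not given in the sources used here.

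DDIT3 encodes CHOP, a C/EBP-family factor that ATF4 induces and that is linked to cell death under lasting ER stress. In shIRE1 clone 3 it showed the deepest fall of the 10 genes at every time, from 89.6, 81.8 and 80.6 CPM at 0 h to 26.1, 23.5 and 26.4 at 24 h, 17.4, 19.035 and 19.3 at 48 h and 21.9, 23.5 and 22.6 at 72 h. The shIRE1 clone 1 libraries stood at 24.6, 23.8 and 24.6 CPM at 0 h, 21.5, 25.3 and 29.0 at 24 h, 20.1, 21.0 and 20.4 at 48 h and 19.4, 23.2 and 23.0 at 72 h. Clone 1 was thus already at 0 h in the range that clone 3 reached after Dox. DDIT3 thus had log2 fold changes of -1.74, -2.18 and -1.90 in clone 3 (adjusted p = 2.21e-12 to 8.52e-11) and 0.05, -0.24 and -0.16 in clone 1 (adjusted p = 0.627, 0.0218 and 0.132).

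After XBP1 silencing DDIT3 moved in opposite directions in the 2 clones. It rose in shXBP1 clone 1, which was at 23.9, 25.2 and 25.8 CPM at 0 h, 47.5, 45.8 and 53.6 at 24 h, 39.0, 41.1 and 39.6 at 48 h and 46.2, 41.8 and 41.6 at 72 h. It fell in shXBP1 clone 18, which was at 63.4, 55.3 and 61.9 CPM at 0 h, 45.7, 42.9 and 45.9 at 24 h, 36.0, 36.6 and 36.9 at 48 h and 44.3, 40.997 and 42.2 at 72 h. In each clone the 0 h and Dox libraries did not overlap at any time, and after Dox the levels ran from 39.0 to 53.6 CPM in clone 1 and from 36.0 to 45.9 CPM in clone 18. Log2 fold changes of DDIT3 were 0.95, 0.66 and 0.77 in clone 1 (adjusted p = 9.42e-06 to 0.000102) and -0.42, -0.72 and -0.49 in clone 18 (adjusted p = 2.41e-05 to 0.00359), and -0.49 at 72 h in clone 18 without the library that stood apart. The mRNA of ERN1 changed in these clones too. At 24, 48 and 72 h it changed by 0.76, 0.62 and 0.72 in clone 1 (adjusted p = 7.05e-07 to 3.47e-06). In clone 18 the values for ERN1 were -0.04, -0.29 and -0.29 (adjusted p = 0.817, 0.0146 and 0.0119). The part of ERN1 in the other responses of these clones was not tested. In GENCODE 44, DDIT3 shares 355 exonic bases with MARS1 on the other strand, and strand use in the counting is not stated. MARS, as the table names it, changed by -0.94 at 48 h in shIRE1 clone 3 and by 0.12 at 24 h in shXBP1 clone 1, where DDIT3 changed by -2.18 and 0.95.

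ATF3, a stress-induced bZIP factor that can repress as well as activate, had fallen by 24 h of IRE1 silencing as far as at any later time. For clone 1 the levels went from 10.3, 10.9 and 11.2 CPM at 0 h to 5.05, 5.43 and 5.75 at 24 h, and lay at 4.94, 5.78 and 6.02 at 48 h and 5.57, 6.23 and 5.41 at 72 h. Clone 3 went from 18.2, 19.2 and 18.2 CPM to 6.57, 5.55 and 6.34 at 24 h, and lay at 7.23, 7.21 and 7.69 at 48 h and 8.79, 7.29 and 8.93 at 72 h. All Dox libraries were below all 0 h libraries in both clones. ATF3 had log2 fold changes of -1.003, -0.96 and -0.91 in clone 1 (adjusted p = 1.78e-08 to 6.77e-08) and -1.60, -1.34 and -1.17 in clone 3 (adjusted p = 3.84e-09 to 4.05e-08), and in clone 3 it rose again from 24 to 72 h by 0.44 (adjusted p = 0.00308).

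In shXBP1 clone 1, ATF3 ranged from 9.02 to 10.5 CPM after Dox against 10.9, 11.5 and 10.8 at 0 h, and its 1 call, at 48 h (-0.23, adjusted p = 0.0398), was lost without any 1 of the 6 libraries compared. In shXBP1 clone 18 it stood at 18.0, 17.0 and 15.9 CPM at 0 h and 16.3, 15.2 and 9.34 at 72 h, where the lowest value is that of the library that stood apart. The log2 fold change in clone 18 was -0.18, -0.39 and -0.32 (adjusted p = 0.714, 0.211 and 0.253), and without that library the values at 48 and 72 h were -0.39 and -0.10 (adjusted p = 0.0234 and 0.657).

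ATF5, a bZIP factor of the ATF4 subfamily that is itself regulated through eIF2 and activates stress genes of mitochondria, rose in both shIRE1 clones. In shIRE1 clone 1 it stood at 28.5, 33.3 and 39.8 CPM at 0 h, 37.9, 41.9 and 42.4 at 24 h, 73.4, 72.8 and 69.6 at 48 h and 69.4, 69.8 and 64.8 at 72 h. Clone 3 was at 31.4, 32.1 and 32.3 CPM at 0 h, 38.1, 37.8 and 39.7 at 24 h, 73.9, 69.7 and 71.2 at 48 h and 65.9, 70.5 and 58.0 at 72 h. All libraries at 48 and 72 h were above all libraries at 0 and 24 h in both clones. Its log2 fold changes were 0.26, 1.08 and 1.00 in clone 1 (SE 0.0828 to 0.0844, adjusted p = 0.0131, 1.16e-09 and 4.40e-09) and 0.26, 1.16 and 1.01 in clone 3 (SE 0.0730 to 0.0737, adjusted p = 0.00880, 2.61e-09 and 1.26e-08). The 24 h call in clone 1 was lost without 0 h replicate 1 (0.15) or 24 h replicate 3 (0.23).

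In the shXBP1 clones ATF5 fell, at each time in clone 1 and at 72 h in clone 18. Clone 1 was at 44.7, 36.1 and 34.9 CPM at 0 h, 20.2, 27.6 and 22.9 at 24 h, 23.3, 17.2 and 21.5 at 48 h and 21.8, 20.4 and 20.2 at 72 h. Clone 18 was at 32.7, 29.8 and 31.1 CPM at 0 h, 24.4, 29.0 and 31.7 at 24 h, 29.6, 29.3 and 33.2 at 48 h and 25.7, 21.6 and 21.8 at 72 h. Every clone 1 library after Dox was below every 0 h library, whereas in clone 18 this held at 72 h alone. Log2 fold changes of ATF5 were -0.73, -0.92 and -0.91 in clone 1 (adjusted p = 0.00278, 0.000648 and 0.000571) and -0.14, -0.02 and -0.43 in clone 18 (adjusted p = 0.623, 0.933 and 0.0201). The 72 h call in clone 18 was lost without 0 h replicate 1 or 3 or 72 h replicate 2, and without the library that stood apart the value was -0.39 (adjusted p = 0.0411). ATF5 shares 565 exonic bases with NUP62 and 75 with IL4I1, both on the other strand. At 72 h NUP62 changed by -0.18 and -0.03 in shIRE1 clones 1 and 3, and by -0.49 in shXBP1 clone 1. IL4I1 changed by 1.502, 1.12 and -0.09 in the same clones. The part of shared reads in the ATF5 values was not tested.

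The C/EBP factors CEBPG and CEBPB pair with ATF4 and CHOP on DNA. CEBPG fell in both shIRE1 clones, from 94.4, 92.3 and 90.4 CPM at 0 h to 56.3, 57.3 and 56.7 at 24 h, 55.0, 52.6 and 52.4 at 48 h and 53.3, 55.5 and 52.8 at 72 h in clone 1. In clone 3 it went from 149, 147 and 135 CPM at 0 h to 61.0, 54.1 and 61.1 at 24 h, 45.9, 46.0 and 47.3 at 48 h and 45.8, 45.9 and 55.0 at 72 h. No Dox library overlapped the 0 h libraries in either clone. CEBPG had log2 fold changes of -0.70, -0.79 and -0.78 (SE 0.0436 to 0.0442, adjusted p = 1.18e-11 to 7.72e-11) and -1.30, -1.64 and -1.57 (SE 0.0702 to 0.0711, adjusted p = 4.01e-11 to 1.33e-09), respectively. The shXBP1 clones lay from 88.0 to 108 CPM in clone 1 and from 96.8 to 109 CPM in clone 18 over all their libraries, without a call at any time in the fit per clone (0.02, 0.15 and 0.12 in clone 1, -0.08, -0.07 and -0.00041 in clone 18). In the fit over all 48 libraries CEBPG was higher in clone 1 at 48 h (adjusted p = 0.0182) and 72 h (adjusted p = 0.0488).

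CEBPB differed between the shIRE1 clones. It fell in clone 3 from 30.6, 24.1 and 25.3 CPM at 0 h to 12.4, 12.4 and 16.4 at 24 h and 10.6, 10.8 and 9.04 at 72 h. In clone 1 it rose from 7.96, 9.68 and 9.94 CPM to 12.1, 13.1 and 11.1 at 24 h and was back at 8.92, 9.33 and 9.35 by 48 h. The levels of the 2 clones overlapped at 72 h. CEBPB had log2 fold changes of -0.97, -1.18 and -1.41 in clone 3 (adjusted p = 1.36e-07 to 1.25e-05) and 0.39, -0.0033 and 0.13 in clone 1 (adjusted p = 0.000789, 0.977 and 0.225). In the shXBP1 clones CEBPB gave no call at any time in edgeR's fit per clone, with levels from 13.2 to 16.2 CPM in clone 1 and from 12.8 to 20.1 CPM in clone 18. At 72 h in clone 18 it was lower by DESeq2 (-0.35, adjusted p = 0.0374), by edgeR over all 48 libraries (adjusted p = 0.0180) and without 72 h replicate 1 (-0.42). CEBPB shares 231 exonic bases with CEBPB-AS1 on the other strand, which changed by -0.97 at 24 h in shIRE1 clone 3 and by 0.47 in clone 1.

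TRIB3, a pseudokinase induced by ATF4 and CHOP that restrains ATF4, and PPP1R15A (GADD34), the subunit that directs a phosphatase to eIF2, are brakes on the response. TRIB3 in shIRE1 clone 3 went from 227, 210.2 and 212 CPM at 0 h to 105, 115 and 119 at 24 h, 77.0, 76.7 and 82.5 at 48 h and 78.6, 83.0 and 69.3 at 72 h, a change of -0.94, -1.47 and -1.50 (adjusted p = 1.47e-10 to 5.62e-08). In clone 1 its fall was from 97.2, 94.5 and 101 to 86.3, 89.7 and 82.9 CPM at 72 h (0.01, -0.21 and -0.18, adjusted p = 0.876, 0.000755 and 0.00314). Both clones thus ended below their starting range, clone 3 from a higher start. In the shXBP1 clones TRIB3 gave no call in edgeR's fit per clone (-0.15, -0.33 and -0.34 in clone 1, -0.0049, -0.21 and -0.17 in clone 18). That outcome depended on the method in clone 1, where the values at 48 and 72 h passed the threshold by DESeq2 (adjusted p = 0.0415 and 0.0404), without the filter on low counts (0.00863 and 0.00682) and over all 48 libraries (0.00462 and 0.00378). They also passed it without 0 h replicate 2 or 3 (-0.42 to -0.43). The 72 h call in shIRE1 clone 1 was lost over all 48 libraries (adjusted p = 0.0915).

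PPP1R15A fell from 168, 196 and 198 CPM at 0 h to 96.2, 98.4 and 100.3 at 24 h, 54.3, 52.4 and 57.5 at 48 h and 61.6, 59.9 and 55.9 at 72 h in shIRE1 clone 3. In shIRE1 clone 1 it was at 101, 92.9 and 106 CPM at 0 h, 82.5, 91.5 and 92.4 at 24 h, 67.7, 68.0 and 63.8 at 48 h and 69.4, 64.9 and 69.2 at 72 h. No Dox library reached the 0 h range in either clone, and the level was lower at 72 than at 24 h in both (-0.74 in clone 3, -0.39 in clone 1). For PPP1R15A the log2 fold change was -0.94, -1.78 and -1.68 in clone 3 (adjusted p = 1.70e-11 to 3.98e-08) and -0.17, -0.58 and -0.56 in clone 1 (adjusted p = 0.0123, 4.02e-08 and 8.03e-08), of which the 24 h call in clone 1 was lost without 0 h replicate 3 (-0.13) or 24 h replicate 1 (-0.12) and over all 48 libraries (adjusted p = 0.0616). In shXBP1 clone 1 the change was -0.26, -0.36 and -0.18 (adjusted p = 0.0556, 0.0125 and 0.159), and the 48 h call was lost without 0 h replicate 1 (-0.24) and without either of replicates 2 and 3 at 48 h. The 24 h value passed the threshold by DESeq2 (adjusted p = 0.0483), without the filter on low counts (0.0369) and over all 48 libraries (0.0143). It also passed without 0 h replicate 3 (-0.34) or 24 h replicate 2 (-0.32). In shXBP1 clone 18 the change was 0.01, -0.06 and -0.02, with levels from 104 to 127 CPM over its 12 libraries.

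DDIT4 (REDD1) and SESN2 (sestrin 2) are stress-induced inhibitors of the growth kinase complex mTORC1. DDIT4 moved in opposite directions in the 2 clones of each shRNA. In shIRE1 clone 1 it rose, with libraries at 21.1, 21.8 and 24.5 CPM at 0 h, 61.5, 66.6 and 62.5 at 24 h, 47.7, 46.1 and 45.6 at 48 h and 49.4, 48.7 and 44.7 at 72 h. In shIRE1 clone 3 it fell, with libraries at 182, 172 and 226 CPM at 0 h, 87.6, 90.6 and 94.3 at 24 h, 47.7, 50.2 and 51.1 at 48 h and 54.9, 65.0 and 41.3 at 72 h. The 0 h libraries of the 2 clones lay far apart and their 72 h libraries overlapped. DDIT4 had log2 fold changes of 1.49, 1.05 and 1.08 in clone 1 (adjusted p = 2.81e-13 to 4.46e-11) and -1.10, -1.97 and -1.86 in clone 3 (adjusted p = 6.25e-09 to 6.70e-06).

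The shXBP1 clones repeated this split of DDIT4. Clone 1 rose, with libraries at 32.6, 21.0 and 20.0 CPM at 0 h, 41.4, 60.2 and 48.6 at 24 h, 45.9, 35.6 and 45.5 at 48 h and 45.9, 39.6 and 38.5 at 72 h. Clone 18 fell, with libraries at 118, 98.6 and 120.0 CPM at 0 h, 52.1, 63.2 and 70.7 at 24 h, 54.6, 56.7 and 68.9 at 48 h and 56.9, 44.4 and 39.8 at 72 h. At each time the Dox libraries of each clone were on 1 side of its 0 h libraries, and at 72 h the 2 clones overlapped. The log2 fold change was 1.01, 0.78 and 0.73 in clone 1 (adjusted p = 0.00239, 0.00926 and 0.0113) and -0.85, -0.90 and -1.25 in clone 18 (adjusted p = 0.00560, 0.00208 and 0.000110). The 72 h call in clone 1 was lost without 0 h replicate 2 (0.63), and the 72 h value in clone 18 was -1.14 without the library that stood apart (adjusted p = 0.000106).

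SESN2 fell in shIRE1 clone 3 from 218, 204 and 200.4 CPM at 0 h to 80.4, 100.4 and 104 at 24 h, 89.5, 87.0 and 83.9 at 48 h and 80.7, 78.7 and 70.0 at 72 h. The shIRE1 clone 1 libraries ranged from 64.9 to 79.9 CPM over all 12 libraries. The change was -1.13, -1.27 and -1.45 in clone 3 (adjusted p = 1.34e-09 to 4.76e-08) and -0.00066, -0.03 and -0.06 in clone 1 (SE 0.0654 to 0.0662, adjusted p = 0.994, 0.667 and 0.409). It rose at 24 h in shXBP1 clone 1, from 104, 88.1 and 88.4 to 109, 134 and 129.7 CPM (0.39, adjusted p = 0.0106). Its fall at 72 h in shXBP1 clone 18 (-0.32, adjusted p = 0.0337) was -0.24 and no longer called without the library that stood apart (adjusted p = 0.0773), and was also lost without any 1 of the 0 h libraries or 72 h replicate 2. At 48 h the change in that clone was -0.26 (adjusted p = 0.0951), and without the same library it passed the threshold (adjusted p = 0.0245).

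The clones of 1 shRNA were next compared with each other, to ask how far a response rested on the clone. At 0 h, before any Dox, 9 of the 10 mRNAs differed between the shIRE1 clones (all genes: 40.6% called in either direction), each higher in clone 3 than in clone 1, and ATF5 did not pass the threshold. The log2 differences in level, clone 3 minus clone 1, were largest for DDIT4 (3.10, adjusted p = 1.20e-18), DDIT3 (1.79, adjusted p = 3.70e-21), CEBPB (1.53) and SESN2 (1.51), and smallest among those called for ATF4 (0.58). Every clone 3 library at 0 h was above every clone 1 library for these 9 genes. The 9 included brakes and targets alike, with 1.15 for TRIB3, 0.91 for PPP1R15A, 0.78 for ATF3 and 0.64 for CEBPG.

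The same comparison of the shXBP1 clones at 0 h gave 8 of the 10 called (all genes: 51.3%), 6 higher and 2 lower in clone 18 than in clone 1. DDIT4 (2.19, adjusted p = 1.36e-14) and DDIT3 (1.27, adjusted p = 1.40e-16) again differed most, followed by ATF3 (0.62) and SESN2 (0.58). ATF5 (-0.31) and TRIB3 (-0.23) were lower in clone 18, and ATF4 (0.02, SE 0.0542) and PPP1R15A (0.01, SE 0.0772) gave no call. Without 0 h replicate 1 of shXBP1 clone 1, the highest of its group for ATF4, ATF5, TRIB3, PPP1R15A, DDIT4 and SESN2, the count was 5 instead of 8, with ATF5 (-0.22) and TRIB3 (-0.09) among the lost calls.

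ERN1 had the same order at 0 h. It was higher by a log2 difference of 1.52 in shIRE1 clone 3 than in clone 1 (adjusted p = 5.05e-26) and of 1.14 in shXBP1 clone 18 than in clone 1 (adjusted p = 1.20e-21), so that in each pair the clone with more ERN1 was the one with more DDIT3, DDIT4 and SESN2. Its part in those levels was not tested.

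After 72 h of Dox fewer of the 10 differed in level between the clones, which does not show that the other levels were the same. The share of all genes called was lower too. It went from 40.6% at 0 h to 14.7% between the shIRE1 clones and from 51.3% to 14.5% between the shXBP1 clones. Without the library that stood apart these shares at 72 h were 17.4% and 24.8%. In the main fit the counts of the 10 at 72 h were near the share of all genes. Between the shIRE1 clones, 2 of the 10 differed in level at 72 h (all genes: 14.7%), ATF3 higher in clone 3 (0.54, SE 0.130, adjusted p = 0.00333) and ATF4 lower (-0.20, SE 0.0548, adjusted p = 0.0106). DDIT4 differed by 0.18 (SE 0.151), DDIT3 by 0.05 (SE 0.0790), CEBPB by 0.0045 (SE 0.113) and SESN2 by 0.13 (SE 0.0911). Between the shXBP1 clones 1 of the 10 differed (all genes: 14.5%), ATF3 (0.45, adjusted p = 0.00776), whose value was 0.67 without the library that stood apart and whose call was lost without 72 h replicate 1 or 2 of clone 18 (0.31 and 0.36). DDIT4 differed by 0.19 (SE 0.152) and DDIT3 by -0.02 (SE 0.0753), and without that library by 0.30 and -0.02. This comparison at 72 h was added after the data had been seen.

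**Figure D3:**
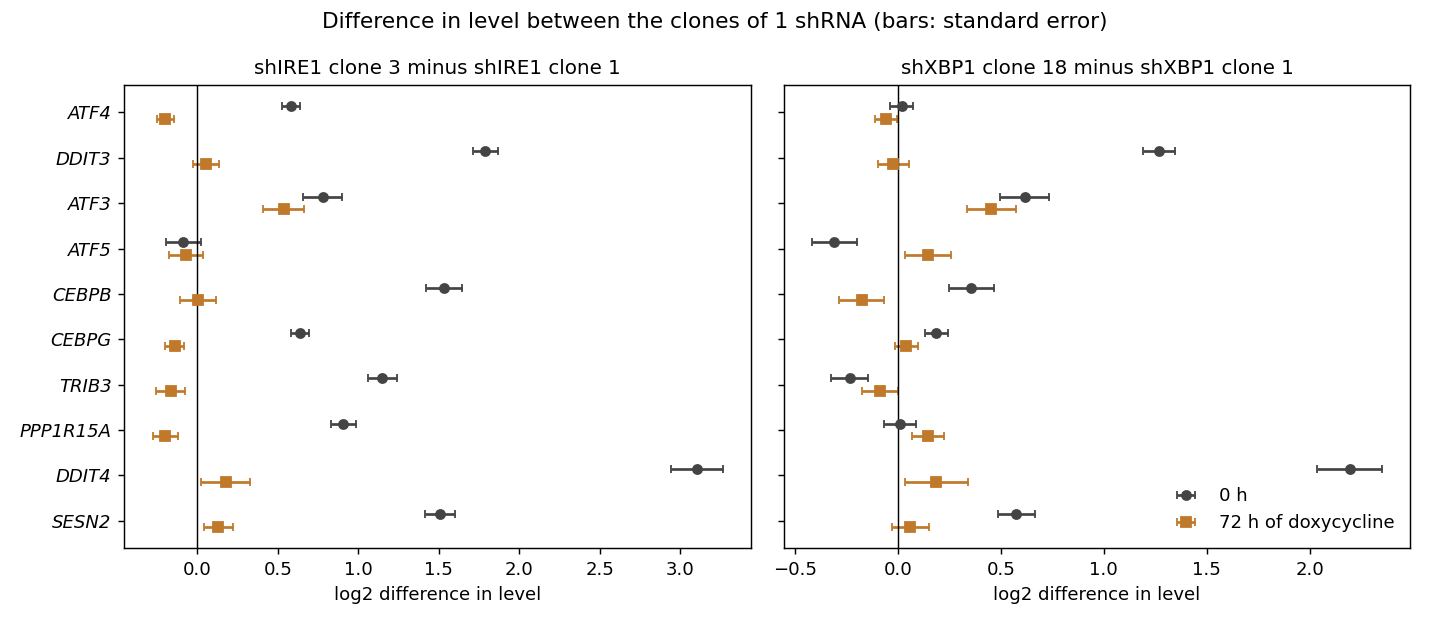
Log2 difference in level between the clones of 1 shRNA (horizontal axes) for each gene (vertical axis), at 0 h (circles) and after 72 h of Dox (squares), with bars for the standard error. At 0 h the differences reach 3.10 between the shIRE1 clones and 2.19 between the shXBP1 clones, both for DDIT4, while at 72 h the largest are 0.54 and 0.45, both for ATF3.

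Since the responses are measured against these 0 h levels, a difference in response between clones is the difference in level after Dox less that at 0 h, and the comparisons share the 0 h libraries. Of the 10 genes, 9, 8 and 8 responded differently in shIRE1 clones 3 and 1 at 24, 48 and 72 h (all genes: 28.2%, 30.8% and 27.5%), each more negative in clone 3. The silencing itself also differed. ERN1 changed by -0.27, -0.66 and -0.58 in clone 1 and by -1.60, -1.86 and -1.82 in clone 3 at these times. The part of this in the responses was not tested. ATF5 gave no difference at any time (0.01, 0.08 and 0.02, SE 0.151 at 72 h), and neither did ATF3 at 48 and 72 h (-0.37 and -0.24). Without the library that stood apart, which is in the fit over 48 libraries, the ATF3 difference at 48 h passed the threshold (-0.37, adjusted p = 0.0244). In the shXBP1 clones 5, 6 and 5 of the 10 responded differently (all genes: 17.1%, 24.1% and 24.6%). With 1 library left out the count ran from 4 to 5 at 24 h and from 4 to 6 at 48 h. The calls of ATF4 at 24 h and CEBPG at 48 h were lost without the filter on low counts (adjusted p = 0.120 and 0.206). Each of these calls was also lost without any 1 of several libraries. DDIT3 and DDIT4 were more negative in clone 18 at each time, and at 72 h SESN2 (-0.52) and CEBPB (-0.53) were as well, while ATF5 was less so (0.46). At 72 h this count was 3 without 0 h replicate 2 of clone 18, when ATF5 (0.45) and CEBPB (-0.41) lost their calls. The ATF5 call was also lost without any 1 of 4 other libraries, namely replicate 1 at 0 h (0.36) and replicates 2 and 3 at 72 h of clone 1 and replicate 1 at 72 h of clone 18 (0.39). Without the library that stood apart CEBPB differed by -0.44 (adjusted p = 0.0472) and ATF5 by 0.53 (adjusted p = 0.0226), while SESN2 differed by -0.40 and DDIT4 by -1.87 in place of -2.01.

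The mean response of both shIRE1 clones was then set against that of both shXBP1 clones, to ask where IRE1 and XBP1 silencing differed. XBP1 mRNA also changed in the shIRE1 clones, at 24, 48 and 72 h by 0.10, -0.45 and -0.38 in clone 1. In clone 3 the values for XBP1 were -0.14, -0.95 and -0.86. The part of this in the differences was not tested. Of the 10 genes, 8, 10 and 9 responded differently at 24, 48 and 72 h (all genes: 38.7%, 56.9% and 55.3%). At 72 h CEBPG (-1.23, SE 0.0570, adjusted p = 4.19e-21), DDIT3 (-1.17, adjusted p = 2.72e-16), PPP1R15A (-1.02), ATF3 (-0.79) and ATF4 (-0.70) were lower after shIRE1. Without the library that stood apart ATF3 was at -0.91. ATF5 was higher, by 0.69, 1.59 and 1.68 at 24, 48 and 72 h (adjusted p = 1.88e-06, 7.91e-16 and 1.80e-16). In every single pairing of 1 shIRE1 clone with 1 shXBP1 clone, ATF3, ATF5 and CEBPG kept both direction and call at all times. For DDIT3, CEBPB, TRIB3, DDIT4 and SESN2 the mean did not describe every clone: the pairing of shIRE1 clone 1 with shXBP1 clone 18 gave 0.35 for DDIT3, 0.49 for CEBPB, 2.34 for DDIT4 and 0.26 for SESN2 at 72 h, opposite in sign to the mean (-1.17, -0.54, -0.13 and -0.68), and that of both clones 1 gave 0.15 for TRIB3 (mean -0.58). ATF4 with shIRE1 clone 1 and shXBP1 clone 18 (0.02) and PPP1R15A with both clones 1 (0.07) had the opposite sign at 24 h alone. The 48 h call of DDIT4 (-0.40) was lost without any 1 of 5 libraries, among them 0 h replicate 3 of shIRE1 clone 3 (-0.34).

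**Figure D4:**
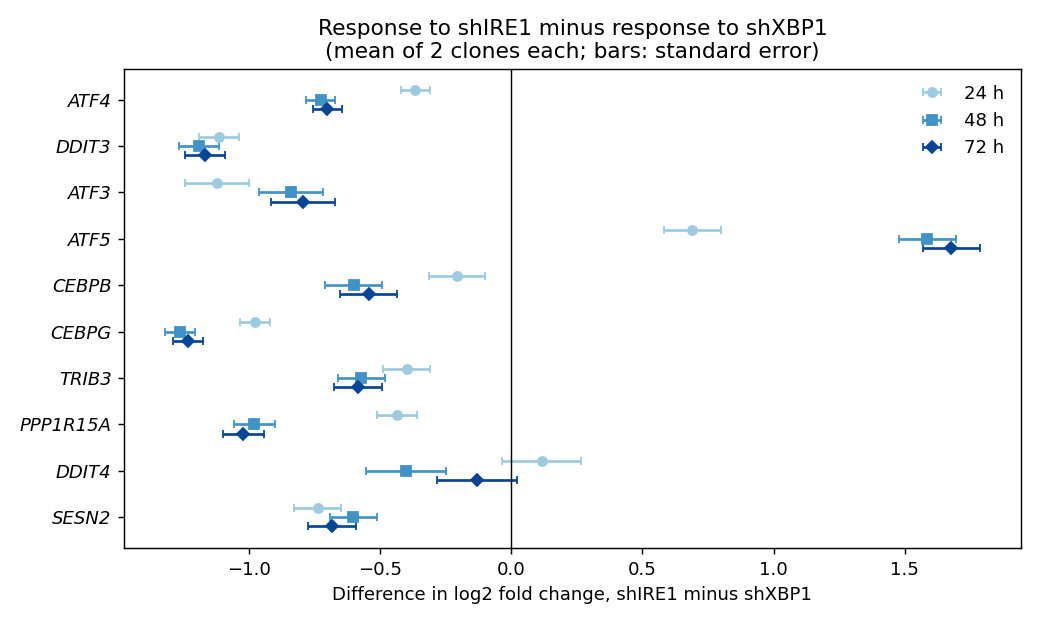
Difference in log2 fold change, shIRE1 minus shXBP1, each the mean of 2 clones (horizontal axis), for each gene (vertical axis) at 24, 48 and 72 h, with bars for the standard error. ATF5 lies to the right at every time (1.68 at 72 h) and 8 genes to the left at every time.

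Between 24 and 72 h the shXBP1 responses of these genes gave no called change in the main fit. None of the 10 differed in edgeR between these times in shXBP1 clone 1 (all genes: 0.205%, with 2 of the 10 at an unadjusted p below 0.05) or in shXBP1 clone 18 (0.125%, with 4 of the 10), and DESeq2 and limma also called 0 of 10 in both. Without the filter on low counts, DDIT4 (-0.41, adjusted p = 9.98e-05) and SESN2 (-0.27, adjusted p = 0.0132) were lower at 72 h in clone 18 (all genes: 3.55%). Both were also called there without 72 h replicate 1 (-0.55 and -0.34). In shIRE1 clone 1, 6 of the 10 differed (all genes: 29.1%), ATF5 higher at 72 h (0.74) and 5 lower, with PPP1R15A (-0.39) and DDIT4 (-0.42) among them. The CEBPB call there was lost by DESeq2, by limma and in edgeR over all 48 libraries (adjusted p = 0.0595, 0.0646 and 0.107). It was also lost without any 1 of the 72 h libraries, and the TRIB3 call was lost over all 48 libraries (adjusted p = 0.144). In shIRE1 clone 3, 9 differed (all genes: 33.5%), ATF5 (0.75) and ATF3 higher and 7 lower, again with DDIT4 (-0.76) and PPP1R15A (-0.74) the furthest. With 1 library left out the clone 3 count ran from 7 to 10.

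The genes on which these regulators act were described from lists of other members of the pathway. Genes of amino acid synthesis, which include classical ATF4 targets, mostly fell in both shIRE1 clones at 72 h, with 2 of 13 tested higher and 10 lower in clone 1 and 1 higher and 11 lower in clone 3 (median log2 fold change -0.46 and -1.50). CTH, an enzyme of cysteine synthesis, changed by -0.56 and -3.39, and PHGDH, the first enzyme of serine synthesis, by -1.06 and -1.79. Of 8 amino acid transporters, 1 rose and 7 fell in clone 1 and all 8 fell in clone 3, with the cystine transporter SLC7A11 at -1.22 and -2.59 and the glycine transporter SLC6A9 at -0.76 and -2.20. Of 13 genes of tRNA charging and export, 1 rose and 10 fell in clone 1 and 12 fell in clone 3, with the glycyl-tRNA synthetase GARS at -0.87 and -1.60 and the alanyl-tRNA synthetase AARS at -0.49 and -1.22. In these 3 lists the falling share was above that of all genes in both clones (31.1% and 30.5%). The lists were chosen with earlier results of these data known, so this is a description and not independent support.

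The upstream kinases, eIF2 subunits and their regulators gave 2 of 17 higher and 8 lower in shIRE1 clone 1 and 1 higher and 9 lower in clone 3, with DNAJC3, an ER protein that inhibits eIF2 kinases, at -1.51 and -1.14 and EIF2S2, the eIF2 beta subunit, at -0.52 and -0.999. Other effectors gave 7 higher and 7 lower of 15 in clone 1 and 2 higher and 9 lower in clone 3. CHAC1, a glutathione-degrading enzyme induced by ATF4 and CHOP, changed by -0.59 and -3.73, and HERPUD1, an ER membrane protein of ER-associated degradation, by -1.12 and -2.19. Of the other bZIP factors, 4 of 16 were higher and 5 lower in clone 1, and 3 of 17 higher and 10 lower in clone 3, with the small MAF protein MAFF at -1.47 and -2.06 and the FOS-family factor FOSL2 at -1.36 and -2.16. Of all genes, 32.5% were higher and 31.1% lower in clone 1, and 29.7% and 30.5% in clone 3, so that some of these counts, such as that of bZIP factors lower in clone 1, were near the share of all genes.

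The same lists were counted after XBP1 silencing at 72 h, with 13 genes of amino acid synthesis, 8 of transport, 13 tRNA genes, 17 sensors and 17 bZIP factors tested in both clones, and 14 effectors in clone 1 and 15 in clone 18. Of all genes, 16.8% were higher and 16.8% lower in clone 1, and 4.41% and 5.55% in clone 18. In shXBP1 clone 1, amino acid synthesis gave 3 higher and 1 lower, transport 0 and 4, tRNA genes 3 and 0, sensors 2 and 5, effectors 4 and 1, and bZIP factors 3 and 6. CTH (0.96) and CHAC1 (0.53) rose in this clone, as DDIT3 did. In shXBP1 clone 18 the counts in the same order were 0 and 4, 0 and 5, 0 and 0, 0 and 2, 2 and 3, and 1 and 4. Without the library that stood apart, amino acid synthesis in that clone gave 1 lower in place of 4, and the other 5 lists changed by 1 gene or less in each direction. CHAC1 fell in clone 18 (-1.07), as DDIT3 did, whereas CTH did not pass the threshold there (0.03, adjusted p = 0.860).

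By its 12 log2 fold changes (3 times in 4 clones, which share the 0 h libraries within a clone), ATF4 correlated most with DLG3, HEBP1, TUBE1, SEC62 and UBE2R2 among 12010 genes, with Pearson correlations from 0.993 down to 0.989. DDIT3 correlated most with EXOC4, SOS2, ST6GAL1, BCL2 and YIPF4, from 0.991 down to 0.986. A correlation compares neither the sign nor the size of the changes. Each gene named for ATF4 had a positive change at 72 h in shXBP1 clone 1, such as DLG3 at 0.31, where ATF4 was at -0.19. Of those named for DDIT3, SOS2 alone was positive at 72 h in shXBP1 clone 18, at 0.12, where DDIT3 was at -0.49. These correlations are a description, without a test.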

How the data were processed

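The authors sequenced single-end mRNA libraries (TruSeq Stranded mRNA, Illumina NovaSeq) and deposited whole-number counts per gene for 48 libraries, and, for 18401 genes, TMM-scaled log2 CPM values, which differ from edgeR's own (prior count 2) by at most 5e-14. The submitters' processing notes list GSNAP 2013-10-10, R 4.1.3, edgeR 3.32.1 and limma 3.46.0 and the builds GRCh37 and hg19, without roles. Strand use in counting is not given in the sources used here, and the build was not needed for the counts.

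Groups followed the titles, which name hours as days. Counts were tested with edgeR 4.0.16 (quasi-likelihood, TMM, filterByExpr with a minimum count of 10 and a total of 15, in R 4.3.3), over the 12 libraries of a clone for responses to Dox and over all 48 for differences between clones and shRNAs. Adjustment by Benjamini-Hochberg covered all genes tested, calls were made below 0.05, and the code was tested on simulated data. SE is that of the log2 fold change. Alternatives were RLE, no filter, DESeq2 1.42.0, limma 3.58.1 on the deposited log2 values, other sets of libraries, a replicate block and each library left out. The labels call the 3 libraries of a group biological triplicates from separate flasks of 1 clone, so p-values measure the spread between flasks.

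The members and lists were chosen with earlier results of these data known. From each list the text names the 2 genes with the largest mean absolute change over both shIRE1 clones at 72 h among those called in both, and, for ATF4 and DDIT3, the 5 genes with the highest correlation of log2 fold changes among genes with a mean log2 CPM above 1. Genes that overlap a member, CTH and CHAC1 in the shXBP1 clones, and the marker genes CD27 and CD3E were named after their values had been seen.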

Additional observations from a re-analysis of the deposited data

Results flagged for a closer look

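Responses that differed between 2 groups under the same contrast, by the interaction term of edgeR's fit over 48 libraries, are given here as values. Between the shIRE1 and shXBP1 means, 8, 10 and 9 of the 10 regulators responded differently at 24, 48 and 72 h (all genes: 38.7%, 56.9% and 55.3%). Between shIRE1 clones 3 and 1 these counts were 9, 8 and 8 (28.2%, 30.8% and 27.5%), and between shXBP1 clones 18 and 1 they were 5, 6 and 5 (17.1%, 24.1% and 24.6%).

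Single genes that were called in opposite directions in the 2 clones of 1 shRNA were few. CEBPB differed by -1.35 on the log2 scale between shIRE1 clones 3 and 1 at 24 h. DDIT4 differed by -2.59, -3.01 and -2.93 between the shIRE1 clones and by -1.89, -1.69 and -2.01 (-1.87 without 72 h replicate 3 of clone 18) between the shXBP1 clones (18 minus 1) at 24, 48 and 72 h. DDIT3 differed by -1.40, -1.40 and -1.29 between the shXBP1 clones at these times.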

How the results depend on the processing

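Of 4650 values for single regulators under an alternative, 4454 kept their side of the threshold, 130 lost a call and 47 gained one. The other 19 changed sign and had a call in the main fit, in the alternative or in both. A change of sign without any call is counted among the 4454. All 19 came from single pairings of an shIRE1 with an shXBP1 clone. With shIRE1 clone 1 against shXBP1 clone 18 the difference was 0.018 for ATF4 and 0.018 for TRIB3 at 24 h, 0.48, 0.48 and 0.35 for DDIT3, 0.56, 0.10 and 0.49 for CEBPB and 0.067, 0.23 and 0.26 for SESN2 at 24, 48 and 72 h, and 1.95 and 2.34 for DDIT4 at 48 and 72 h. With both clones 1 it was 0.14, 0.10 and 0.15 for TRIB3, 0.070 for PPP1R15A at 24 h and 0.26 for DDIT4 at 48 h, and with shIRE1 clone 3 against shXBP1 clone 1 it was -2.12 for DDIT4 at 24 h.

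Among the counts of regulators called, that of shXBP1 clone 18 was 3 at 48 h, 5 without the filter on low counts and 6 with only the 6 libraries compared (all genes: 5.78%, 4.22% and 18.7%). At 72 h it was 5, and 2 with only those 6 libraries (9.96% and 2.78%). Between 24 and 72 h it was 0, and 2 without the filter (0.125% and 3.55%). The count of 10 for shIRE1 minus shXBP1 at 48 h was 5 with both clones 1 (56.9% and 42.2%). The count of 2 between the shIRE1 clones in level at 72 h was 1 without the filter (14.7% and 6.06%). The cause of these shifts was not tested. Leaving out 1 library at a time gave 3 to 6 for shXBP1 clone 1 at 48 h, 2 to 5 and 2 to 6 for shXBP1 clone 18 at 48 and 72 h and 0 to 2 between 24 and 72 h, and, between the shXBP1 clones, 5 to 8 at 0 h, 0 to 1 in level at 72 h and 3 to 5 in response at 72 h.

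Same-numbered libraries mostly did not deviate together (5 of 72 correlations over 0.1, from -0.410 to 0.250). In shXBP1 clone 1, replicate 1 correlated at 0.250 between 0 and 48 h, 0.217 between 0 and 72 h and 0.134 between 48 and 72 h. The 24 h replicate 1 of that clone deviated the other way from those at 0, 48 and 72 h (-0.410, -0.233 and -0.232). A replicate block changed 3 calls, ATF3 at 48 h in shXBP1 clone 1 (-0.23), SESN2 at 72 h in shXBP1 clone 18 (-0.32) and PPP1R15A between the shXBP1 clones at 48 h (0.29), all lost, and changed no other call. The lowest count of any regulator was 138, so depth limits ATF3 most.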
